A study of Mus musculus with 13 samples.

Results

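The replication-dependent histone genes of the mouse were taken as the protein-coding genes of the mm9 annotation (GENCODE M1) whose symbol starts with Hist1h, Hist2h, Hist3h or Hist4h. The rule found 67 genes of 22367, and it used no measured value. By the histone they encode, 6 were H1 linker histone genes, 19 H2A, 18 H2B, 11 H3 and 13 H4 genes. Runs of these genes with no gap above 500 kb gave 6 groups. The first cluster on chromosome 13 (chr13:21807632-22135545) held 23 genes, the second (chr13:23622919-24026720) held 31, and Hist1h2al (chr13:51298057-51298434) lay alone. The cluster on chromosome 3 (chr3:96023839-96082924) held 9 genes, chromosome 11 held Hist3h2ba and Hist3h2a, and chromosome 6 held Hist4h4.

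The study profiled Hepa 1-6, an established mouse hepatoma cell line, by ChIP-seq, which sequences the DNA held by an antibody target and lists where its reads pile up. Cells in standard culture were used for the corepressor KAP1 (gene Trim28), for the active chromatin marks H3K27ac and H3K4me1 and for the silencing mark H3K9me3. The polymerases PolII, which makes mRNA, and PolIII, which makes tRNA and other small RNAs, were profiled on day 5 after transduction with a control vector (control) or with a short hairpin RNA that targets KAP1 (Kap1 KD). Each of these 8 groups held 1 library and gave 1 list, so no value below has a replicate error, no test was possible, and a difference between the conditions cannot be told apart from one between 2 libraries. The labels give the control vector as carrying a control hairpin, and the study's methods give it as empty. The labels also call the cells transfected with a plasmid, whereas the methods describe transduction and then selection with puromycin. All groups are the same tumour line, with no normal liver or sorted phase of the cell cycle beside it. The promoter of Trim28 carried PolII in both conditions, with a peak score of 33.0 in the control and 142 under Kap1 KD. The lists hold no measure of KAP1 in the Kap1 KD cells. The paper checked the knockdown by RT-qPCR, which measures mRNA, for the samples of its PolII ChIP-seq. Among the hepatocyte marker genes, H3K27ac lay over the promoters of Alb, Afp, Hnf4a and Foxa2. The hepatocyte markers Apob, Apoa1, Foxa1, Serpina1a and Ttr had none of the 8 lists over the promoter. H3K27ac lay over none of 10 marker genes of other cell types. Control PolII lay over the promoter of Foxa2 and over none of Alb, Afp, Hnf4a and the marker genes of other cell types.

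Histones package DNA, and these genes supply most of the new histone protein that is needed when DNA is copied. Their transcription rises in S phase, in nuclear bodies that form at the gene clusters around the coactivator NPAT. The genes have no introns as a rule, and their mRNAs carry no poly(A) tail. The mRNAs end in a short stem-loop that is bound by SLBP and cut with the help of the U7 small nuclear RNP. In mouse, as in human, the large cluster lies among tRNA genes, which are transcribed by PolIII.

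The stem-loop is shown first because it marks most genes of this class without use of the ChIP-seq lists. The pattern was CTTTTNAG (N is any base) with 2 further bases on each side and then GG before and CC after, on the gene strand. It was found after the stop codon in 61 of the 67 genes, 22 to 59 bases downstream with a median of 31.0. Within 200 bases of the stop codon it was found in 65 of all 22367 genes (0.291%). There were 6 versions, printed here in capitals over their whole length of 16 bases. In the order printed they were found in 39, 9, 8, 2, 2 and 1 genes. Those given for H4 occurred in H4 genes and in no other class, and the rest occurred in no H4 gene.
H1, H2A, H2B and H3 genes, common version: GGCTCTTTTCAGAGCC
H1, H2A, H2B and H3 genes, rarer version: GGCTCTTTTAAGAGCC
H4 genes, common version: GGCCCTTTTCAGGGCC
H4 genes, rarer version: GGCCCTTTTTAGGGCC
H4 genes, other version: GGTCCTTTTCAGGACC
H2A gene, single occurrence: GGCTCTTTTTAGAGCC

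The pattern was not found in Hist1h2an, Hist1h3g, Hist1h4a, Hist1h2al, Hist2h2be and Hist2h2bb. Of these 6, only Hist2h2bb lacked PolII over its promoter in both conditions.

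The histone gene promoters were loaded with PolII. A promoter spanned 250 bp on both sides of a gene's annotated 5′ end, and a list was counted there when 1 of its regions overlapped it by at least 1 bp. Control PolII lay over 60 of the 67 promoters (89.6%, 95% Wilson interval 80.0 to 94.8%, which covers counting error over genes only), against 13.1% of all protein-coding genes. Under Kap1 KD the number was also 60, against 23.3% of all genes. PolII was present in both conditions over 59 genes (88.1%), against 12.4% of all genes. It was present in the control alone over 1 gene, Hist1h2bf, against 0.733% of all genes. It was present under Kap1 KD alone over 1 gene, Hist3h2ba, against 10.9% of all genes. Neither condition had PolII over 6 histone promoters (8.96%), against 75.9% of all genes.

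**Figure D1:**
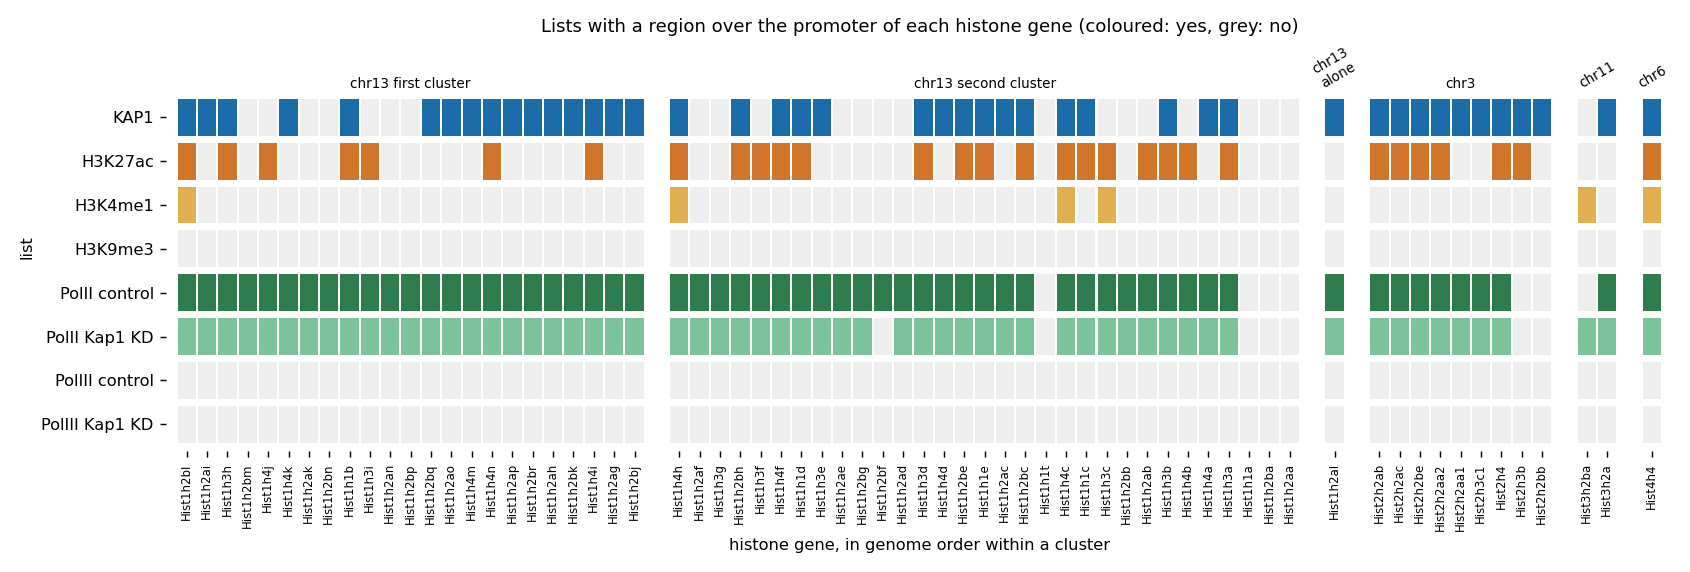
Each column is 1 of the 67 histone genes in genome order within its cluster, each row is 1 of the 8 lists, and a coloured cell marks a region of that list over the promoter. The PolII rows are filled for 60 genes each, KAP1 for 44 and H3K27ac for 30, and the H3K9me3 and both PolIII rows are empty.

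KAP1 lay over 44 histone promoters (65.7%, 53.7 to 75.9%), against 15.7% of all genes. The 2941 genes with control PolII give a closer background. KAP1 lay over 53.1% of them, and over 42 of the 60 histone genes with control PolII (70.0%). KAP1 and control PolII together lay over those 42 histone genes, against 6.98% of all genes. H3K27ac lay over 30 histone promoters (44.8%, 33.5 to 56.6%), against 20.0% of all genes. Where at least 50% of the promoter window had to be covered it lay over 3 (4.48%), against 4.46% of all genes, with no excess left. KAP1 with H3K27ac was found at 24 (35.8%), against 7.69% of all genes. H3K4me1 lay over 6 (8.96%, 4.17 to 18.2%), near the 11.9% of all genes, and with 1000 bp to each side it lay over 46.3%, against 37.1% of all genes. H3K9me3 lay over 0 of 67 (interval up to 5.42%), against 5.24% of all genes and 0.476% of those with control PolII. PolIII lay over 0 of 67 in both conditions, against 0.344% of all genes in the control and 0.134% under Kap1 KD.

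Control PolII without H3K27ac was found at 31 histone genes, against 5.24% of all genes. Among genes with control PolII, those 31 were 51.7% of the histone genes, beside 39.9% for all such genes. These counts hold for the window of 250 bp to each side. With 1000 bp, H3K27ac lay near 59 of the 67 histone genes, against 35.2% of all genes. That wider window was not counted for all genes with control PolII. H3K4me1 was found at 8.33% of the histone genes with control PolII and at 22.8% of all genes with control PolII.

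**Figure D2:**
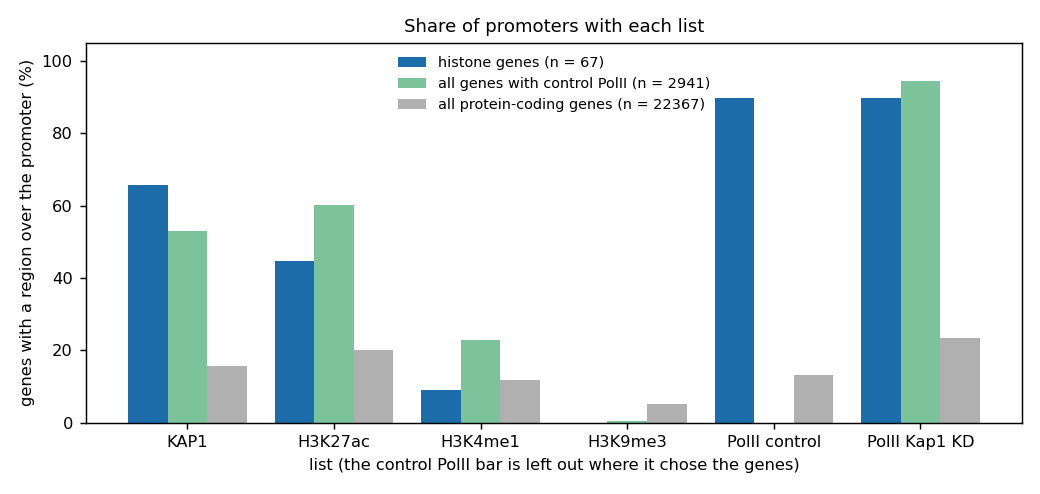
Bars give the percentage of genes with a region of each list over the promoter, for the 67 histone genes, for all 2941 genes with control PolII and for all 22367 protein-coding genes. The histone genes stand at 89.6% for PolII in both conditions and at 65.7% for KAP1. H3K27ac, at 44.8%, lies below the 60.1% of all genes with control PolII in this window of 250 bp to each side.

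The classes differed in H3K27ac more than in PolII. Control PolII lay over 13 of 13 H4 genes, 18 of 19 H2A genes, 15 of 18 H2B genes, 10 of 11 H3 genes and 4 of 6 H1 genes. KAP1 lay over 11 H4, 12 H2A, 10 H2B, 7 H3 and 4 H1 genes. H3K27ac lay over 9 H4, 8 H3 and 4 H1 genes, and over 4 of 19 H2A and 5 of 18 H2B genes. Most H2A and H2B genes share a promoter region. There were 13 head-to-head pairs, 12 of them of an H2A with an H2B gene, with 168 to 693 bp between the 5′ ends and a median of 241 bp. The 37 H2A and H2B genes together had H3K27ac over 9 promoters (24.3%), beside 21 of the other 30 (70.0%). With 500 bp to each side these became 20 (54.1%) and 26 (86.7%), and with 1000 bp 29 (78.4%) and 30 (100%). The acetylated regions of H2A and H2B genes thus lay farther from the 5′ end. The whole set reached 88.1% at 1000 bp, against 35.2% of all genes.

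Positional coverage showed the same layout. At the 5′ end itself, H3K27ac covered 4.48% of the histone genes and 3.99% of all genes. At position −850 bp, upstream, it covered 62.7% of the histone genes, its highest share within 3 kb, and 500 bp upstream of all genes it covered 17.9%. Control PolII was highest 100 bp downstream of the 5′ end (88.1% of histone genes), and KAP1 50 bp upstream of it (64.2%). H3K4me1 covered none of the histone 5′ ends and reached 38.8% at 2700 bp downstream, while over all genes it covered 2.76% of the 5′ ends and was highest 1400 bp downstream.

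**Figure D3:**
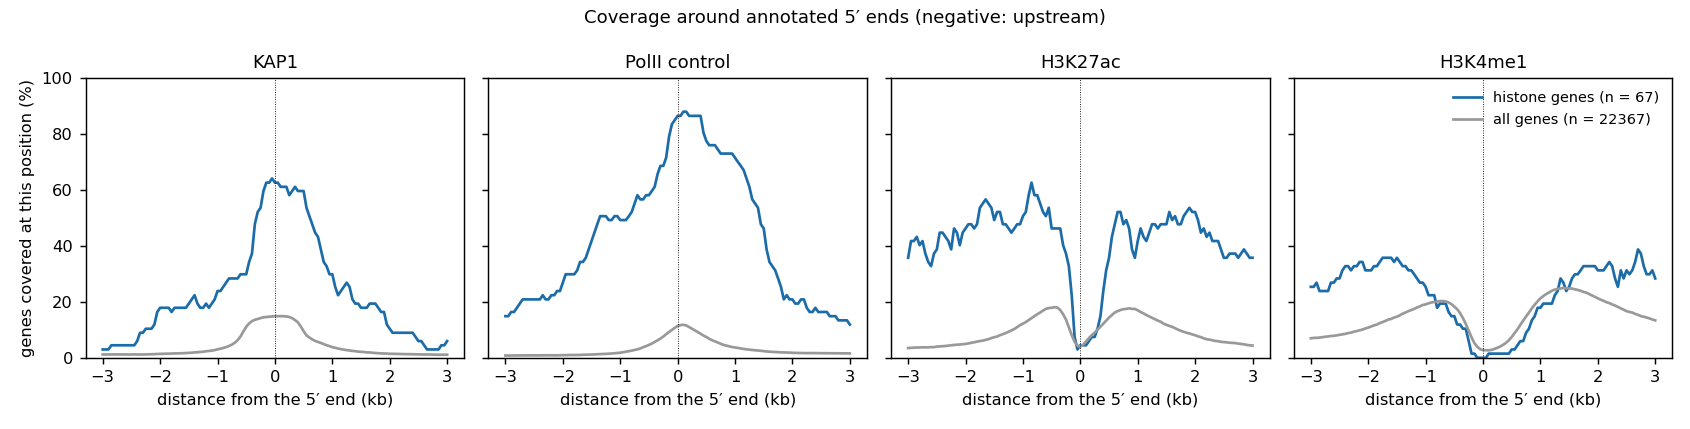
The lines give the percentage of genes whose sequence at each distance from the annotated 5′ end (in kb, negative upstream) is covered by a region of KAP1, control PolII, H3K27ac or H3K4me1, for 67 histone genes and for all 22367 genes. KAP1 and PolII peak at the 5′ end of the histone genes, at 64.2% and 88.1%, whereas H3K27ac drops there to 4.48% between 2 shoulders.

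By cluster, the first chromosome 13 cluster had PolII over 23 of 23 genes in both conditions, KAP1 over 16 and H3K27ac over 7. The second had control PolII over 27 of 31 genes, Kap1 KD PolII over 26, KAP1 over 16 and H3K27ac over 16. On chromosome 3, KAP1 lay over 9 of 9 genes, H3K27ac over 6 and PolII over 7 in both conditions. The single gene Hist1h2al had KAP1 and PolII in both conditions, with scores of 142 for KAP1, 108 for control PolII and 172 for Kap1 KD PolII, and its nearest H3K27ac region was 48832 bp away. Hist4h4 had KAP1 (score 373), H3K27ac, H3K4me1 and PolII in both conditions (329 and 392). The score of KAP1 is taken as that of the MACS peak caller, and the meaning of the PolII and PolIII scores was not stated, so each was read only beside others of its kind.

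KAP1 and control PolII covered the 3 larger clusters more densely than their chromosomes. Control PolII covered 8.95% of the first chromosome 13 cluster and 9.81% of the second, against 0.219% of chromosome 13. It covered 23.8% of the chromosome 3 cluster, against 0.202% of that chromosome. KAP1 covered 11.1%, 4.89% and 21.2% of the same 3 clusters, against 0.610% of chromosome 13 and 0.521% of chromosome 3. These shares include sequence between the histone genes. In and around the first cluster, KAP1 also overlapped all 15 control PolIII peaks. H3K27ac was dense too, with 11.6%, 11.5% and 42.8% of the clusters, against 1.86% of chromosome 13 and 2.05% of chromosome 3. H3K9me3 ran the other way on chromosome 13, with 0.626% and 0.131% of the 2 clusters against 1.70% of the chromosome. On chromosome 3 it covered 1.17% against 0.791%.

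Of 11 other protein-coding genes with a 5′ end inside the spans, PolII lay over 2 in each condition and KAP1 over the same 2 (18.2%), close to the shares of all genes (13.1% for control PolII, 23.3% for Kap1 KD PolII and 15.7% for KAP1). These were Trim17, which is annotated from the same 5′ end as Hist3h2a, and Gm17658, which starts under the same PolII peak as Hist1h4d. Hfe, an iron regulator, the transporter genes Slc17a1 to Slc17a4, Prss16 and Zfp184 had none of the 8 lists over the promoter.

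The peaks were also strong within their lists. The 36 distinct control PolII peaks over histone promoters had a median score of 312, against 40.0 for the whole list, and 29 were in its top 10%. Under Kap1 KD the 38 distinct peaks had a median of 356, against 48.0, and 28 were in the top 10%. In the control 18 of the 36 peaks lay over more than 1 histone gene. These peaks were also wide, with a median of 2028 bp against 921 bp in the control list. The highest control score, 1345, belonged to the peak over Hist2h2aa1 and Hist2h3c1, which ranked 14 of 5015. Hist2h2aa2 followed with 1341, and then the peak over Hist1h4i, Hist1h2ag and Hist1h2bj with 729. Under Kap1 KD the same 3 peaks led, at 1748, 1895 and 975.

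KAP1 was less exceptional in height. The 32 distinct KAP1 peaks over histone promoters had a median score of 137, against 102 for the list, and 5 were in its top 10%. These were the peaks over Hist1h4h (1913), Hist2h2aa2 (1251), Hist2h2aa1 with Hist2h3c1 (1143), Hist1h1c (757) and Hist1h2be with Hist1h1e (515). In the first chromosome 13 cluster the other KAP1 scores were 91.0 over Hist1h2bl with Hist1h2ai, 112 over Hist1h3h, 63.05 over Hist1h4k, 132 over Hist1h1b, 76.8 over Hist1h2ah with Hist1h2bk, 384 over Hist1h4i and 167 over Hist1h2ag with Hist1h2bj. In the second they were 80.85 over Hist1h2bh, 84.7 over Hist1h4f, 358 over Hist1h1d, 182 over Hist1h3e, 57.2 over Hist1h3d, 90.9 over Hist1h4d, 104 over Hist1h2ac with Hist1h2bc, 162 over Hist1h4c, 89.9 over Hist1h3b and 172 over Hist1h4a with Hist1h3a. On chromosome 3 a score of 193 lay over Hist2h2ab, Hist2h2ac and Hist2h2be, 235 over Hist2h4 and 240 over Hist2h3b with Hist2h2bb. Hist3h2a had 53.6. Hist1h4m and Hist1h4n, which lie in repeated sequence, had 69.45 and 66.3. The annotated 5′ end of Hist1h2be lies next to Hist1h1e, since the gene is annotated over 37383 bp, so its values are those of the Hist1h1e region.

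The H1 genes, which encode the linker histones, split into 4 with KAP1, H3K27ac and PolII and 2 with no list over the promoter. Hist1h1b, Hist1h1c, Hist1h1d and Hist1h1e had the former, with PolII in both conditions and no H3K4me1. Hist1h1b had scores of 132 for KAP1, 356 for control PolII and 432 for Kap1 KD PolII. Hist1h1c had 757, 540 and 538. Hist1h1d had 358, 372 and 437, and Hist1h1e had 515, 415 and 483. Hist1h1t (chr13:23787680-23788588), the testis-specific H1 gene, and Hist1h1a (chr13:23855537-23856283) had none of the 8 lists over the promoter. Their nearest control PolII peaks were 1527 and 1248 bp from the 5′ end.

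The other genes with no PolII were Hist1h2aa and Hist1h2ba, the testis-specific H2A and H2B genes, and the chromosome 3 genes Hist2h3b and Hist2h2bb. Hist1h2aa (chr13:24026331-24026720) and Hist1h2ba (chr13:24025637-24026025) form a head-to-head pair at the far end of the second cluster, with no list over either promoter. A small PolII peak lay at the 3′ end of Hist1h2ba in both conditions, 87 bp wide with a score of 28 in the control and 92 bp wide with a score of 48 under Kap1 KD, 354 and 347 bp from its 5′ end. Hist2h3b (chr3:96072577-96073064) and Hist2h2bb (chr3:96073644-96082924) both lay under a KAP1 peak with a score of 240, and Hist2h3b also had H3K27ac. Some peak numbers were missing from the PolII lists in the gap around these 2 chromosome 3 genes (1 in the control and 2 under Kap1 KD), so a call may have been removed there before deposit. No number was missing in the gaps around the other genes without PolII.

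Promoters are shown for a gene of the strong Hist1h4i, Hist1h2ag and Hist1h2bj peak, for the gene with the highest KAP1 score, and for 2 genes without PolII. Each runs from 250 bases before to 50 bases after the 5′ end in mm9, on the gene strand. Capitals mark the TATA motif TATAAA, the motif known as the CCAAT box and the octamer ATTTGCAT on either strand, with each motif counted separately.
Hist1h2bj promoter, chr13:22134833-22135132, plus strand: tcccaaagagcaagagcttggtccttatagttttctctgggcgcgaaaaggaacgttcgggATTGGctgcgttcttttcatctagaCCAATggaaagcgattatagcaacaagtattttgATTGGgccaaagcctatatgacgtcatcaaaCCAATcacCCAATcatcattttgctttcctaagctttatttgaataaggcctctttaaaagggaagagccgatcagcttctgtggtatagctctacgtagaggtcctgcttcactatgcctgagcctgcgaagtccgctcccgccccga
Hist1h4h promoter, chr13:23622669-23622968, plus strand: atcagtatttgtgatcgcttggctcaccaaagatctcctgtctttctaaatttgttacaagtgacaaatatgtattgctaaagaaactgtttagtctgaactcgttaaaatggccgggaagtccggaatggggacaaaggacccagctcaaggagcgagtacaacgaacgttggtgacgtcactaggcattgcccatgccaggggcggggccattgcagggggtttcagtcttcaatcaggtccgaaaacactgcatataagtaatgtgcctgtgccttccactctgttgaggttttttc
Hist1h2aa promoter, chr13:24026081-24026380, plus strand: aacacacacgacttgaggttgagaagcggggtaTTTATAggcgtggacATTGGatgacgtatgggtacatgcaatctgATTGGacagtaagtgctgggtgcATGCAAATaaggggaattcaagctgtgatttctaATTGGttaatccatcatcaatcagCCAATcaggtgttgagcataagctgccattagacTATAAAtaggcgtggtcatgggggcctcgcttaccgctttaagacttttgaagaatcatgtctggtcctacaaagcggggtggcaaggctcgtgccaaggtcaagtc
Hist1h1a promoter, chr13:23855287-23855586, plus strand: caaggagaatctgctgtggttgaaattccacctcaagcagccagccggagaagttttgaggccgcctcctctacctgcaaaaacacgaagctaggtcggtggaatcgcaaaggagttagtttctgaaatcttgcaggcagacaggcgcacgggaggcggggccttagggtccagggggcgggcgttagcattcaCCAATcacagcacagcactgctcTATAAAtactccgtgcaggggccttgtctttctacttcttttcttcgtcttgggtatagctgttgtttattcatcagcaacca

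In these windows TATAAA was found in 38 of 67 histone genes, against 13.4% of all genes. CCAAT was found in 57, against 37.9% of all genes, and ATTTGCAT in 15, against 1.73%. CCAAT was present in every H1, H2A and H2B gene and in 10 of 11 H3 genes, but in 4 of 13 H4 genes. The octamer was present in 7 H2A and 8 H2B genes and in no gene of another class. Hist1h2aa, with no list over its promoter, had 2 TATAAA, 4 CCAAT and 1 octamer, whereas Hist1h4h, with the highest KAP1 score, had none of the 3. TATAAA was held by 34 of 60 histone genes with control PolII (56.7%) and by 4 of 7 without (57.1%). A match is a string of letters and not a measured binding site.

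The ratio of Kap1 KD to control PolII scores was lower at the histone genes than at other genes. For 59 histone genes with a PolII peak in both conditions, control scores ran from 55 to 1345 (median 346) and Kap1 KD scores from 25 to 1895 (median 432). The median ratio of Kap1 KD to control was 1.24 (quartiles 1.12 and 1.34). Over all 2777 genes with PolII in both conditions it was 2.06 (1.62 and 2.64). The histone genes have high control scores, so the 210 other genes with a control score of at least 220, the lower quartile of the histone genes, were set beside the 44 histone genes above that score. Their median ratio was 1.99 (1.78 and 2.23), and that of the histone genes 1.26 (1.16 and 1.34). The Kap1 KD score was the higher one at 51 of 59 histone genes (86.4%) and at 96.4% of all genes. Counted as 37 distinct pairs of peaks, since neighbours share peaks, the median ratio was 1.19. Over the genes, where the median was 1.24, it was 1.21 to 1.30 when each cluster was left out in turn. The class medians lay between 1.17 (H1) and 1.29 (H2B).

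Histone genes with and without KAP1 both had ratios below those of all genes. The ratio was 1.26 over 42 genes with KAP1 and 1.14 over 17 without, and 2.07 and 2.05 over all genes with and without KAP1. The scores have no stated unit and the depths are unknown, so the 2.06 of all genes is the reference against which the histone genes read low, and no absolute change follows from either number. In bulk cells, fewer cells in S phase and less PolII per cell cannot be told apart.

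**Figure D4:**
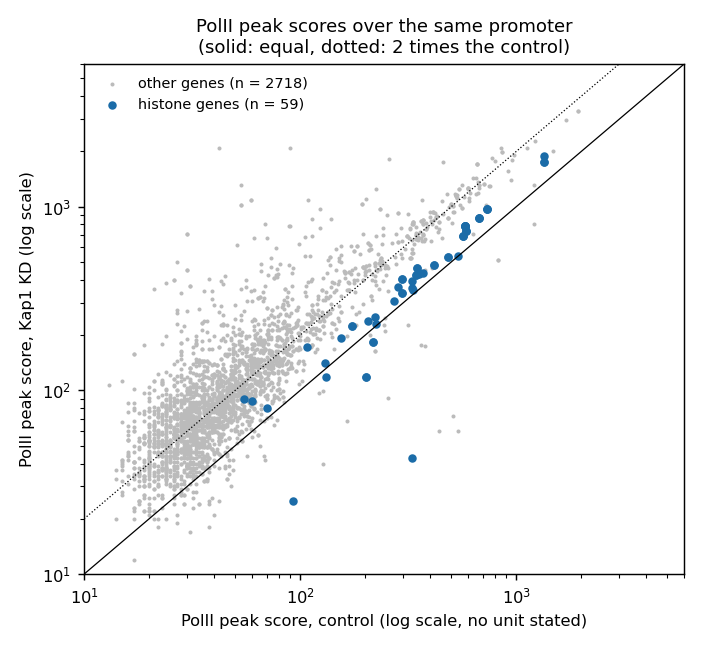
Each point is a gene with PolII over the promoter in both conditions, with the peak score in the control on the x axis and under Kap1 KD on the y axis, both on log scales and without a stated unit. Most of the 59 histone genes lie between the line of equal scores and the dotted line of 2 times the control score, with a median ratio of 1.24, and 8 lie below the line of equal scores, down to 0.131. The median of all genes is 2.06.

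The Kap1 KD score was the lower one at 8 histone genes, of which 6 encode H2A or H2B. Those classes made up 18 and 14 of the 59 genes scored. Hist1h2ab had 329 in the control and 43 under Kap1 KD, but its control peak also covered Hist1h3b, which had a separate Kap1 KD peak with a score of 360. Hist1h2ad had 93 in the control and 25 under Kap1 KD, the latter from a peak 73 bp wide, and its head-to-head partner Hist1h2bf, which shared the control peak, had its 5′ end 263 bp from the Kap1 KD peak. Hist1h2an and Hist1h2bp shared peaks of 202 and 118, and Hist1h2ak and Hist1h2bn shared 217 and 183. Hist1h4k had 132 and 118, and Hist1h1c 540 and 538. Hist3h2ba, with PolII under Kap1 KD alone, had a score of 16 there, which ranked 12375 of 12862.

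Sequence copies limit what can be said of single genes. Reads were 100 bases long, and a stretch of that length was called unique when it occurs once in the assembly on both strands. All such stretches were unique in 21 of 67 histone promoters (37.3% for stretches sampled every 25 bases), against 89.8% of all promoters. Under 50% were unique in 9: Hist1h2bq, Hist1h2ao, Hist1h2ap and Hist1h2br with 0%, and Hist1h4m, Hist1h4n, Hist2h2aa1, Hist2h2aa2 and Hist2h3c1 with 24.9%. All 9 had KAP1 and PolII in both conditions, and 2 had H3K27ac. On chromosome 13, Hist1h2bq, Hist1h2ao and Hist1h4m are repeated in mirror order as Hist1h4n, Hist1h2ap and Hist1h2br. The control PolII peaks over the 2 copies had the same score (578) and the same width (3265 bp). Their centres lay at −278 bp from the 5′ end of Hist1h2bq and at −380 bp from that of Hist1h2br. Under Kap1 KD score and width were also equal (788 and 3205 bp), with centres at −300 and −402 bp. The KAP1 peaks over the H2A and H2B pair were equal as well (111 and 1955 bp), both centred at −132 bp. With equal scores and hardly any unique sequence, these values cannot be read as separate measurements of the 2 copies. Which copy the reads came from cannot be told. Over the 58 genes with at least 50% unique stretches, KAP1 lay over 60.3% and control PolII over 87.9%.

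No PolIII peak lay on a histone promoter, and 1 peak, listed inside Hist2h2bb in sequence that is not unique, overlapped a histone gene. Within 10 kb of the clusters there were 19 control peaks, 15 in and around the first chromosome 13 cluster, 3 at the second and 1 at chromosome 3, and 10 under Kap1 KD (8, 2 and 0). From the first to the last gene of both chromosome 13 clusters, with 10 kb added, there were 33 control and 17 Kap1 KD peaks, of which 15 and 7 lay between the clusters. Of the 33 control peaks 29 overlapped a Kap1 KD peak, and of the 17 Kap1 KD peaks 16 overlapped a control peak. Over the whole lists, 6.75% of control peaks and 37.1% of Kap1 KD peaks overlapped a peak of the other condition, and 50.7% and 35.4% outside chromosomes 1 to 4, which hold most of the control list. KAP1 overlapped 32 of the 33 and all 17, against 11.7% of all control and 36.4% of all Kap1 KD PolIII peaks (62.3% and 36.8% outside chromosomes 1 to 4). H3K9me3 overlapped none of them, against 18.8% and 22.7% of all (20.2% and 22.2% outside chromosomes 1 to 4).

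Several control peaks ran together under Kap1 KD. On chromosome 13, 8 Kap1 KD peaks each spanned 2 to 4 control peaks, 21 control peaks in all. These were 8 of the 19 Kap1 KD peaks that overlapped 2 or more control peaks among all 431 (4.41%). The 33 control peaks covered 25529 bp with a median width of 393 bp, and the 17 Kap1 KD peaks covered 52108 bp with a median width of 1991 bp. Median scores were 76.0 and 60.0. Between Hist1h2br and Hist1h2ah, 198 kb within the first cluster that hold no histone gene, there were 13 control peaks over 9052 bp and 6 Kap1 KD peaks over 20717 bp. By order in the RefSeq gene table (GRCm38.p6), 31 tRNA genes lie in that interval and 46 between the 2 clusters, and 0 lie among the genes of the second cluster or of the chromosome 3 cluster.

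**Figure D5:**
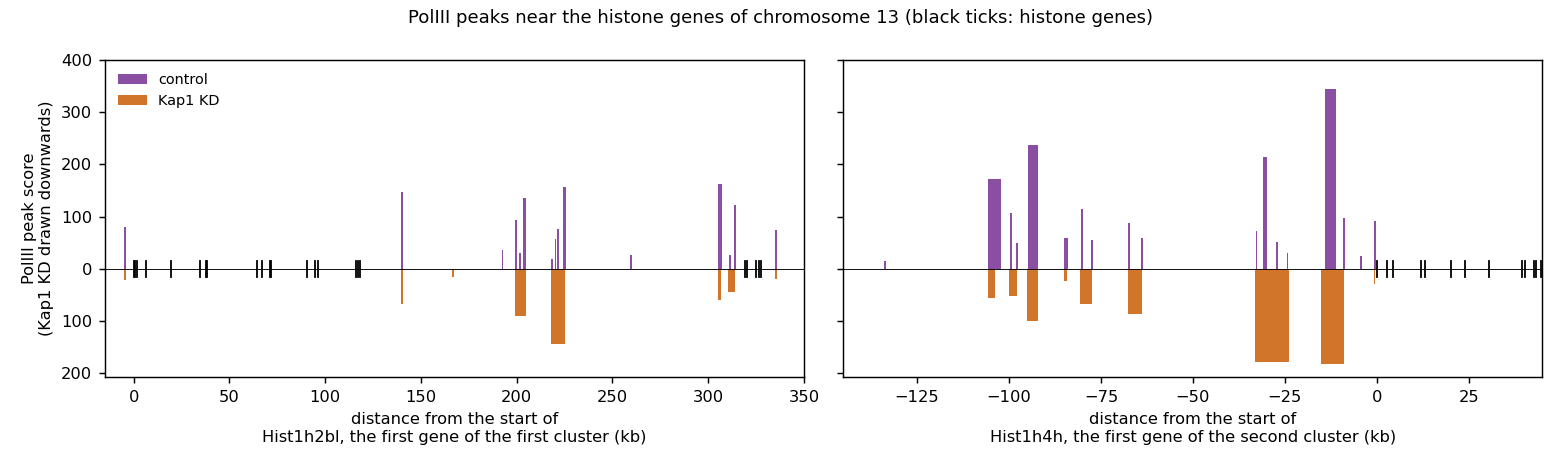
PolIII peaks are drawn at their distance in kb from Hist1h2bl, the first gene of the first chromosome 13 cluster (left), and from Hist1h4h, the first gene of the second (right), with the peak score as height, control upwards and Kap1 KD downwards, and the peak width as width (narrow peaks are drawn at a minimum width). Histone genes are black ticks, and the peaks lie beside the runs of ticks. Control peaks reach 345 on the right, and the Kap1 KD peaks are fewer and wider.

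Within the spans the highest control scores on chromosome 13 were 163 (chr13:22112924-22114613), 156 (chr13:22031931-22033109), 147 (chr13:21947013-21948149), 136 (chr13:22011048-22012411) and 123 (chr13:22121066-22121991). All were between Hist1h2br and Hist1h2ah. The highest under Kap1 KD were 181 (chr13:23607802-23614027), 143 (chr13:22025406-22032946), 91 (chr13:22006554-22012336), 67 (chr13:21947101-21948421) and 60 (chr13:22112641-22114398). The first of these spanned a control peak with a score of 345 (chr13:23608927-23611772), which lay just outside the 10 kb flank, 11147 bp from Hist1h4h, and is not among the control peaks named above. The nearest peak to a chromosome 13 histone gene lay 412 bp upstream of Hist1h4h (chr13:23622233-23622507, score 92), and its Kap1 KD partner lay 520 bp upstream (chr13:23622032-23622399, score 28). Both overlapped KAP1, H3K27ac and H3K4me1 regions and the PolII peak of Hist1h4h, in part only for some, and neither held a B box.

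The B box is the promoter element inside tRNA genes that the PolIII factor TFIIIC binds. The sequence GTTCGANTC with a G before it and a C after it, on either strand, was found in 9 of 19 control peaks in the spans (47.4%) and in 5 of 10 Kap1 KD peaks (50.0%). It was found in 3.03% of all control PolIII peaks and 13.5% of all Kap1 KD peaks, in 0.116% of all protein-coding promoters and in none of the 67 histone promoters. Kap1 KD peaks here were wider. In the central 500 bp of each peak, the shares in the spans were 36.8% (control) and 20.0% (Kap1 KD). Over the whole lists they were 2.20% and 8.12%. The control PolIII list holds 89.5% of its 2772 peaks on chromosomes 1 to 4, beside 20.6% of 431 under Kap1 KD. Outside those chromosomes 20.2% of control peaks and 13.5% of Kap1 KD peaks held a B box. Windows around a B box are shown for the strongest peak near the chromosome 3 genes and for 3 peaks between the chromosome 13 clusters with scores of 345, 215 and 172, with the B box in capitals, in mm9.
B box window, chr3:96304275-96304365, minus strand: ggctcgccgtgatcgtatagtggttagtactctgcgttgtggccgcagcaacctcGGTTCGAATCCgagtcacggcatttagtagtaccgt
B box window, chr13:23609066-23609156, plus strand: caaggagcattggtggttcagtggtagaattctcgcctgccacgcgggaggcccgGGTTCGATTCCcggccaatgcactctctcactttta
B box window, chr13:23592377-23592467, minus strand: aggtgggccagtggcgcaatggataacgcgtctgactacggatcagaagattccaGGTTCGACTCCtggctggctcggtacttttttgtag
B box window, chr13:23517501-23517591, minus strand: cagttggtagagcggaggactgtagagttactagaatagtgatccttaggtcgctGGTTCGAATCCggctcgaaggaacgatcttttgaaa

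On chromosome 3, 1 control PolIII peak lay in the span (chr3:96074508-96076928, score 71). It was listed inside the gene Hist2h2bb, but 0% of its stretches of 100 bases were unique in the assembly, so its reads cannot be assigned to this place. It overlapped KAP1 and H3K9me3, held no B box, and had no Kap1 KD partner. Its numbering gap in the Kap1 KD list held a missing number. A further 12 control peaks and 2 Kap1 KD peaks lay within 300 kb of the genes. The strongest, chr3:96301360-96305804, had a score of 1214 in the control and 233 under Kap1 KD, held 3 B boxes and lay 218436 bp from Hist2h2bb. A run of 25 tRNA genes follows the last chromosome 3 histone gene within 300 kb in the RefSeq order. Chromosome 3 is among those that hold most of the control list, and 7 of its 13 control peaks here had under 50% unique stretches, with a median of 16.1%, beside 0 of 33 on chromosome 13. Their part in the 13 to 2 count was not tested.

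Other genes of histone biology were read beside them. Of 10 annotated variant or linker histone genes outside the clusters, which are made through the whole cell cycle or have polyadenylated mRNAs, control PolII lay over 4 (H3f3a, H2afz, H2afj and H2afx) and Kap1 KD PolII over 5, the same genes and H1fx. KAP1 lay over 4 (H2afz, H2afv, H2afy2 and H1fx) and H3K27ac over 3 (H3f3b, H2afy and Cenpa). H2afy2 was the single one with H3K9me3. Of 27 genes for histone supply and histone mRNA processing, control PolII lay over 6, including Nasp, a histone chaperone, Ncbp1 of the cap-binding complex and Casp8ap2 of the histone locus body. Kap1 KD PolII lay over 12, KAP1 over 6 and H3K27ac over 8. The shares of all genes were 13.1% for control PolII, 23.3% for Kap1 KD PolII, 15.7% for KAP1 and 20.0% for H3K27ac. Npat, which encodes the coactivator of the clusters, had none of the 8 lists over its promoter, and Slbp had PolII under Kap1 KD alone.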

How the data were processed

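ChIP was sequenced in reads of 100 bases and, per the labels, mapped by the authors with Bowtie to mm9. KAP1 and PolII peaks were called with MACS against total input and histone mark regions with ChIP-Part. The caller of PolIII and all options are not given in the sources used here. The deposited lists hold positions, and the authors' KAP1, PolII and PolIII lists also hold a score per peak. Peak numbers of PolII and PolIII have gaps (22.6 to 55.0% missing), so calls had been removed before deposit. Read depth is unknown, and replicates were not pooled, as each group holds 1 library. The 5 input samples were not analysed here.

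Overlaps were computed in Python 3.11.15 with pandas 2.3.3, NumPy 2.4.6 and pysam 0.24.0 on the assembly NCBIM37 with GENCODE M1, with positions counted from 1, and the overlap code was tested on simulated data. No statistical test was run, and shares carry 95% Wilson intervals. The histone genes, the gene lists and the comparisons were chosen with earlier results of these data known. Genes were named where KAP1, H3K9me3 or PolIII lay over the promoter, where H3K27ac and PolII or PolII in 1 condition was absent, for all H1 genes and the 3 testis genes, and for the 3 highest PolII and 5 highest PolIII peaks per condition. Other genes in the text, such as those with lower Kap1 KD scores, were chosen after their values were seen. Alternatives were other promoter windows, the upper part of each list, other flanks and leaving out each cluster. One marker gene is not reported here.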

Additional observations from a re-analysis of the deposited data

Results flagged for a closer look

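Within 10 kb of the histone gene clusters the number of PolII peaks was higher under Kap1 KD than in the control (54 and 42, a ratio of 1.29), and that of PolIII peaks was lower (10 and 19, a ratio of 0.526). The result was singled out because the peak numbers of the 2 polymerases moved in opposite directions. The covered length gave another picture. Within the same 10 kb, PolIII peaks covered 13451 bp in the control and 28165 bp under Kap1 KD, where several control peaks ran together. From the first to the last gene, in the control and under Kap1 KD, PolII covered 29347 and 28368 bp of the first chromosome 13 cluster, 39630 and 36616 bp of the second and 14063 and 17826 bp of the chromosome 3 cluster. The difference was not tested, since each group holds 1 library. Over their whole lists, PolII had 12862 and 5015 peaks and PolIII 431 and 2772 (Kap1 KD and control). Outside chromosomes 1 to 4, which hold 89.5% of the control PolIII list, PolIII had 342 and 292 peaks, the opposite direction to that around the histone genes.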

How the results depend on the processing

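Of 135 values under other settings, 119 stayed within the 95% interval of the reported share or within 1.5 times the reported count, and 16 did not. H3K27ac and H3K4me1 depended on the window. H3K27ac gave 68.7% with 500 bp to each side (29.3% of all genes), 88.1% with 1000 bp (35.2%) and 26.9% with regions of at least the median width (11.4%). Where at least 50% of the window had to be covered it gave 4.48%, against 4.46% of all genes, so that the excess was gone. H3K4me1 gave 20.9% with 500 bp (24.0% of all genes), 46.3% with 1000 bp (37.1%), 25.4% over gene bodies (50.8%) and 0% where 50% had to be covered (2.75%). With peaks of at least the median score KAP1 gave 46.3%, against 7.98% of all genes. On chromosome 13 there were 6 Kap1 KD PolIII peaks without a flank. With a flank of 300 kb, chosen after seeing the data, chromosome 13 had 33 control and 17 Kap1 KD peaks and chromosome 3 had 13 and 2. The share of Kap1 KD PolIII peaks with a B box was 20.0% in the central 500 bp (8.12% of all Kap1 KD PolIII peaks). Leaving out each cluster in turn gave 60.3 to 77.8% for KAP1, 38.9 to 52.3% for H3K27ac, 7.58 to 11.4% for H3K4me1, 84.1 to 91.7% for control PolII and 84.1 to 94.4% for Kap1 KD PolII. No paired analysis was possible because each group holds 1 library and the results come from no test. Windows at the start codon and genes with mostly unique promoters, both chosen after seeing the data, moved no share outside its interval. The unknown depth limits every comparison between lists.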
